A study of Mus musculus with 5 samples.

Results

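The genes described here are the Ugt and Sult conjugating enzymes measured in livers of db/db mice. They are all genes of the count table whose symbol starts with Ugt or Sult followed by a digit and whose value reached 10 or more in at least 2 of the 5 libraries. This gave 28 genes, 12 Sult and 16 Ugt, of 11048 genes with a symbol, and all 28 of the table's rows with such a symbol passed that minimum. The compared groups were 2 liver samples from mice given SR4 at 10 mg/kg body weight by oral gavage for 5 weeks, and 3 liver samples from mice given vehicle by the same route for 5 weeks. Both groups were db/db, a genotype in which a defective leptin receptor makes mice obese and diabetic. Both were acclimatized for 1 week before dosing. SR4 is a small molecule, and the series title presents it as a transporter of protons that fatty acids activate. Age and sex are not among the labels used here. Nothing in them ties a sample to an animal of its own, so each p-value reflects only how much these libraries differ, which could be technical.

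Conjugation makes fat-soluble molecules easier to excrete. Sulfotransferases, encoded by the Sult genes, move a sulfate group from the donor PAPS onto steroids, bile acids, thyroid hormone, catecholamines and phenols, and they work in the cytosol. UDP-glucuronosyltransferases, encoded by the Ugt genes, move glucuronic acid from UDP-glucuronic acid onto bilirubin, steroids, bile acids and drugs, and they sit in the endoplasmic reticulum. In mouse liver several Sult2a and Sult3a genes are known to be expressed more in females than in males.

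Most Sult genes lay above the vehicle range, while Ugt genes lay above or below it about as often as all genes did. Of the 12 Sult genes, 10 had both SR4 libraries above every vehicle library and 0 had both below. Across all 10542 genes tested, 21.5% lay above and 20.2% lay below in this way (41.7% in either direction). Sult2a3 and Sult2a5, both among the Sult genes above, reached the minimum in both SR4 libraries but, of the vehicle libraries, only in vehicle 2. They passed it only through the SR4 libraries, so their place above is tied to that rule. They also count in the medians and in the counts at an unadjusted p. Of the 16 Ugt genes, 4 lay above, 3 lay below and 9 overlapped, near the shares over all genes. Over the 28 members that made 14 above and 3 below, and 13 above and 5 below with libraries scaled to equal totals. The median log2 fold change was 2.13 over the Sult genes and -0.06 over the Ugt genes, against -0.0043 over all genes tested. Equal totals, in place of the TMM factors used otherwise, lowered the median of all genes by 0.12. With the limma test adjusted over all genes, 1 of the 28 members passed at 0.05, the sulfotransferase Sult1b1, where 1.3% of all genes passed, 46 higher and 91 lower (37 and 135 with equal totals). At an unadjusted limma p under 0.05 there were 13 members higher (all genes: 10.4%) and 3 lower (all genes: 10.9%), where 21.4% of all genes reached that p in either direction. Without SR4 2 the 13 became 5, and without vehicle 3 the 3 became 1. The difference between the families was not tested.

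Values below are normalised counts, which are the deposited values divided by a TMM scaling factor, per library of 25494249 counts. Fold changes are log2 differences of value + 1, SR4 over vehicle, with the standard error from limma, and they understate the change of genes with low values. Since the livers were measured in bulk, fewer cells of a type and less RNA per cell cannot be told apart. Lengths are the exon bases of each gene in GENCODE M21 (GRCm38).

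Sult1 genes sulfate phenols, hormones and catecholamines, and 4 of the 5 measured lay above the vehicle range in both SR4 libraries (all genes: 21.5%). Sult1b1, which acts on thyroid hormone and small phenols (chromosome 5, 87513339 to 87538195, GRCm38), had 1045 and 1176 normalised counts in SR4 livers, against 539, 529 and 697 in vehicle livers. Sult1b1 rose, by 0.92 ± 0.15 on the log2 scale (1.90-fold; limma adjusted p = 0.0476). That call was narrow: the adjusted p was 0.0541 with equal totals, and 0.0649, 0.197, 0.0866, 0.127 and 0.0608 without SR4 1, SR4 2, vehicle 1, vehicle 2 and vehicle 3. None of its 50-base stretches occurred in a transcript of another gene (0%).

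Sult1a1, the main phenol sulfotransferase of liver (chromosome 7, 126672865 to 126676432), had 15120 and 21076 normalised counts in SR4 livers, against 5350, 8290 and 7346 in vehicle livers. The lower SR4 library was above the highest vehicle library. The log2 fold change was 1.38 ± 0.24 (limma adjusted p = 0.0515), and over 13 alternatives the adjusted p ran from 0.021 to 0.200, with 4 under 0.05 (0.0456 with equal totals). Per kb of exon, Sult1a1 averaged 12009 normalised counts in SR4 livers and 4642 in vehicle livers, the highest Sult level per length in both groups.

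Sult1e1, the estrogen sulfotransferase (chromosome 5, 87575969 to 87591594), had 4029 and 6018 normalised counts in SR4 livers, against 953, 1387 and 2584 in vehicle livers. The groups did not overlap, although vehicle 3 held 2584 and was well above the other vehicle libraries. Its log2 fold change was 1.71 ± 0.42 (limma adjusted p = 0.107). Sult1d1, which sulfates catecholamines in the mouse, had 2442 and 3159 normalised counts in SR4 livers and 1515, 2105 and 1929 in vehicle livers. Its log2 fold change was 0.60 ± 0.18 (limma adjusted p = 0.132). The genes Sult1b1, Sult1d1 and Sult1e1 are neighbours on chromosome 5, and none of the 3 shared 50-base stretches with another transcript. Sult1c2 overlapped between groups, with 164 and 215 normalised counts in SR4 livers and 137 to 250 in vehicle livers (log2 fold change 0.12 ± 0.29, and -0.006 with equal totals; limma adjusted p = 0.855).

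The Sult2a genes encode the sulfotransferases of bile acids and hydroxysteroids, and 3 of them, Sult2a1, Sult2a5 and Sult2a2, had the 3 largest fold changes of the 28 members. They lie together on chromosome 7 and their coding sequences are so alike that short reads cannot always be placed. The first 60 coding bases of the 5 measured genes, from GENCODE M21 transcripts, are shown to make this visible, with capitals at bases that differ from Sult2a1:
Sult2a1: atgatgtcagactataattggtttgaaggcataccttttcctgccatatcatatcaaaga
Sult2a2: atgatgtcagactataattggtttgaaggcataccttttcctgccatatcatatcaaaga
Sult2a5: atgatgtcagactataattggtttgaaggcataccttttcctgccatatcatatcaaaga
Sult2a3: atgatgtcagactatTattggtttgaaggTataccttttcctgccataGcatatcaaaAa
Sult2a7: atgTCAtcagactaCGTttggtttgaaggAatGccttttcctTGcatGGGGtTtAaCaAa

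In that window Sult2a2 and Sult2a5 matched Sult2a1 at every base, Sult2a3 differed at 4 bases and Sult2a7 at 18. Over the whole coding sequence Sult2a1 was 94.9% identical to Sult2a5, 93.7% to Sult2a3 and 81.2% to Sult2a7. The share of 50-base stretches also found in another gene was 62.1% for Sult2a2, 34.5% for Sult2a5, 33.2% for Sult2a1, 8.36% for Sult2a3 and 0% for Sult2a7. Values for the first 3 of these genes are therefore uncertain as single genes, since the counting could split their reads, while Sult2a7 is the member that can be read on its own.

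Sult2a7 (chromosome 7, 14465051 to 14494230) had 692 and 908 normalised counts in SR4 livers, against 26.5, 226 and 174 in vehicle livers. Both SR4 libraries stood above the vehicle range, and vehicle 1 was far below the other vehicle libraries. Its log2 fold change was 2.95 ± 0.94 (limma adjusted p = 0.165), and it was 1.99 with an adjusted p of 0.0194 when vehicle 1 was left out, in a range of 0.0194 to 0.508 over all alternatives.

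Sult2a2 (chromosome 7, 13733505 to 13779636) had 3177 and 10298 normalised counts in SR4 livers, against 72.1, 736 and 260 in vehicle livers. Of the counts summed over the 5 Sult2a members, it held 68.8% and 64.4% in SR4 livers and 65.8%, 62.2% and 56.9% in vehicle livers. The log2 fold change was 4.57 ± 1.08 (limma adjusted p = 0.111), and 3.7 to 5.42 with 1 library left out.

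Sult2a1 (chromosome 7, 13796246 to 13837409) had 665 and 4398 normalised counts in SR4 livers, against 6.85, 190 and 12.8 in vehicle livers. Within each group the libraries differed by many fold, and yet the groups did not overlap. The log2 fold change of 5.96 ± 1.62 was the highest of all members, with a 95% interval of 1.80 to 10.1 (limma adjusted p = 0.136), and it ran from 4.6 to 7.36 with 1 library left out.

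Sult2a5 (chromosome 7, 13623967 to 13670807) had 64.2 and 272 normalised counts in SR4 livers, against 1.2, 12.1 and 2.7 in vehicle livers. Its log2 fold change was 4.81 ± 0.95 (limma adjusted p = 0.0658). Sult2a3 (chromosome 7, 14067446 to 14123044) had 21.5 and 116 normalised counts in SR4 livers and 3, 18 and 7.73 in vehicle livers, so that SR4 1 lay just above vehicle 2. Its log2 fold change was 2.56 ± 0.93 (limma adjusted p = 0.184). With 1 library left out the log2 fold change ran from 3.78 to 5.85 for Sult2a5 and from 1.37 to 3.75 for Sult2a3, and with a pseudocount of 10 it was 3.3 and 1.76.

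The sum over these 5 genes is not altered by how reads were divided among them, though it is by reads that were dropped or given to other genes. It came to 4619 and 15991 normalised counts in SR4 livers, against 110, 1182 and 457 in vehicle livers. The mean of the SR4 sums was 17.7 times that of the vehicle sums, a ratio that was 27.4 without SR4 1, 7.93 without SR4 2 and 36.4 without vehicle 2. The order of the libraries was the same for each of the 5 genes at its ends: vehicle 1 was lowest and vehicle 2 highest among vehicle livers in 5 of 5, and SR4 2 exceeded SR4 1 in 5 of 5. These are not 5 separate observations, since reads could be split among Sult2a1, Sult2a2 and Sult2a5. Sult2a7, which shared no 50-base stretch with another gene, had the same order at its ends. A neighbouring gene listed as 2810007J24Rik, an older symbol of Sult2a8 in RefSeq, falls outside the symbol rule and overlapped between groups, with 1453 and 2495 normalised counts in SR4 livers and 520, 1805 and 1644 in vehicle livers (limma adjusted p = 0.533). Its mean was 1974 in SR4 livers and 1323 in vehicle livers, where the sums over the 5 genes averaged 10305 and 583. The ratio of 17.7 leaves this gene out and would be lower with it.

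**Figure D1:**
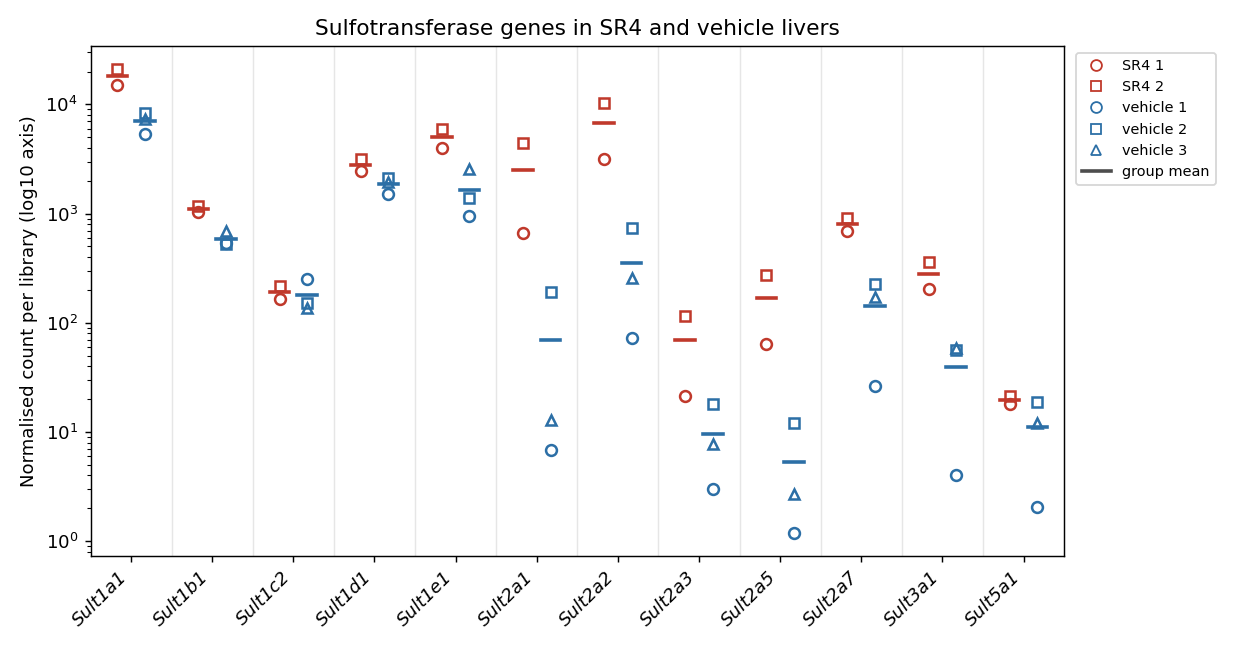
Normalised counts per library (log10 axis) of the 12 sulfotransferase genes, SR4 in red left of vehicle in blue, with a symbol per library and a bar at the group mean. All 5 Sult2a genes and Sult3a1 show both SR4 libraries above the vehicle range (all genes: 21.5%). Sult2a3 and Sult2a5 passed the minimum only through the SR4 libraries, so their place above is tied to that rule. Vehicle 1 is the lowest vehicle library for 10 of the 12 genes, a share that was not computed over all genes.

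Sult3a1, which sulfates amines in the mouse (chromosome 10, 33857721 to 33879532), had 202 and 359 normalised counts in SR4 livers, against 4.03, 56.6 and 58.3 in vehicle livers. As for Sult2a7, vehicle 1 was far below the other vehicle libraries. The log2 fold change was 3.39 ± 1.13 (limma adjusted p = 0.17), and without vehicle 1 it was 2.21 with an adjusted p of 0.0423, in a range of 0.0423 to 0.504 over all alternatives. Sult5a1 had the lowest level per kb of all members, with 18.2 and 21.2 normalised counts in SR4 livers and 2.03, 19 and 12 in vehicle livers, and the groups overlapped (log2 fold change 1.16 ± 0.87; limma adjusted p = 0.481). Sult5a1, Sult2a1 and Sult3a1 reached the minimum of 10 in 4 libraries and Sult2a3 and Sult2a5 in 3, while the other members reached it in all 5. For Sult2a3 and Sult2a5 these libraries were SR4 1, SR4 2 and vehicle 2.

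Ugt1a genes share most of their sequence by design. Each has its own first exon, spliced to the same later exons at the end of the locus on chromosome 1, so that reads from the later exons belong to no single gene. The last 30 bases before the junction and the first 30 bases of the shared exon (chr1:88215044-88215175, plus strand, in capitals) are shown from GENCODE M21 transcripts:
Ugt1a1: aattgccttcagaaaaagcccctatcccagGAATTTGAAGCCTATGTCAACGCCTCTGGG
Ugt1a5: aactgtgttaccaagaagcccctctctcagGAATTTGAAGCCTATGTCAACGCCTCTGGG
Ugt1a6a: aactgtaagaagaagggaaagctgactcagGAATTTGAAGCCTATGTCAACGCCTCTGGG
Ugt1a6b: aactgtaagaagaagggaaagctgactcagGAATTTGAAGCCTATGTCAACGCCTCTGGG
Ugt1a7c: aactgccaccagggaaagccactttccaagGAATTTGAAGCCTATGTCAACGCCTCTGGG
Ugt1a9: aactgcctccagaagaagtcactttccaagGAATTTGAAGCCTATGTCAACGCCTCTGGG

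The capitals were the same in all 6 genes, and Ugt1a6a and Ugt1a6b were the same before the junction too. The share of 50-base stretches found in another gene ran from 52.1% for Ugt1a6a to 80.2% for Ugt1a1, and the coding sequences of Ugt1a6a and Ugt1a6b were 98.4% identical. Values of single Ugt1a genes are therefore uncertain, since they depend on how shared reads were assigned.

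The sum over the 6 Ugt1a genes was 46203 and 40219 normalised counts in SR4 livers, against 33252, 38876 and 42981 in vehicle livers. SR4 2 fell inside the vehicle range, so the locus as a whole overlapped between groups. Ugt1a1, the enzyme that conjugates bilirubin (88211959 to 88218997), made up 54.7% and 47.4% of the sum in SR4 livers and 33.2%, 39.7% and 30.9% in vehicle livers. Ugt1a5 made up 4.78% and 7.54% in SR4 livers and 9.65%, 12.1% and 14.3% in vehicle livers. Neither range of shares overlapped, but the shares rest on how shared reads were assigned, and their difference was not tested.

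Ugt1a1 itself had 25251 and 19081 normalised counts in SR4 livers, against 11049, 15446 and 13282 in vehicle livers. Both SR4 libraries were above the vehicle range (log2 fold change 0.74 ± 0.21; limma adjusted p = 0.114). Ugt1a5 ran the other way, with 2208 and 3033 normalised counts in SR4 livers and 3209, 4687 and 6142 in vehicle livers (log2 fold change -0.80 ± 0.29; limma adjusted p = 0.183). Ugt1a7c was also below the vehicle range, at 42 in both SR4 livers and 65.2 to 98.1 in vehicle livers (log2 fold change -0.85 ± 0.30; limma adjusted p = 0.169).

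The phenol-conjugating Ugt1a6b had 12416 and 10120 normalised counts in SR4 livers, against 11054, 10840 and 14397 in vehicle livers, so SR4 1 lay within the vehicle values and SR4 2 below them. Ugt1a9, another enzyme of phenols, had 3649 and 6179 in SR4 livers and 5231, 5352 and 6300 in vehicle livers. For Ugt1a6a the values were 2638 and 1762 in SR4 livers and 2480 to 2795 in vehicle livers. These 3 genes overlapped between groups, with log2 fold changes of -0.10, -0.24 and -0.28 and limma adjusted p-values of 0.801, 0.590 and 0.403. With equal totals Ugt1a6a had 2492 and 1686 in SR4 livers and 2504 to 2847 in vehicle livers, with no overlap.

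**Figure D2:**
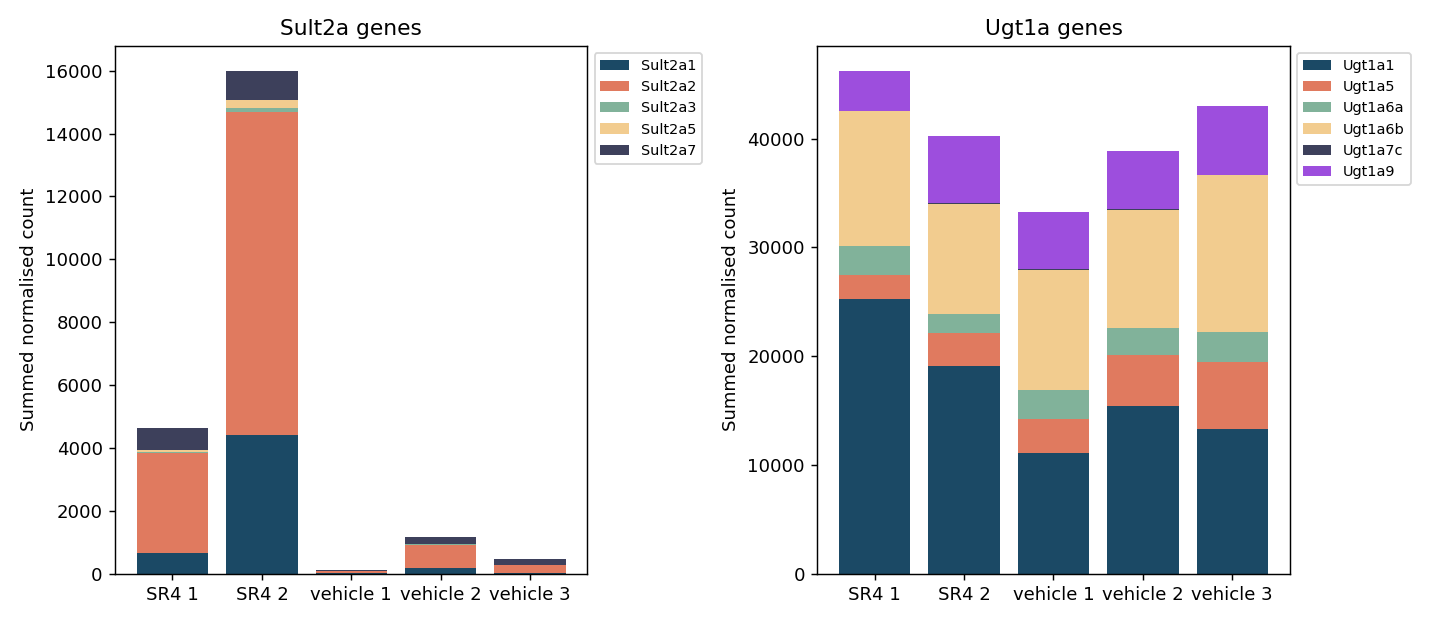
Summed normalised counts of the 5 Sult2a members (left panel, without 2810007J24Rik) and of the Ugt1a genes (right panel) in each library, stacked by gene, with the SR4 libraries left of the vehicle libraries. The Sult2a sum is 4619 and 15991 in SR4 livers and at most 1182 in vehicle livers, while the Ugt1a sum overlaps between groups and its Ugt1a1 part is larger in both SR4 livers.

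Ugt2 genes, which conjugate steroids, bile acids and many drugs, lie in a cluster on chromosome 5. Of the 8 measured, 6 overlapped between groups, where 41.7% of all genes did not overlap. Ugt2b5 averaged 8405 normalised counts per kb in SR4 livers and 8325 in vehicle livers, the highest level per kb of the 28 members in vehicle livers. It had 14966 and 16266 normalised counts in SR4 livers and 13762, 15265 and 17376 in vehicle livers, with a log2 fold change of 0.02 and a 95% interval of -0.36 to 0.40 (-0.10 with equal totals). Ugt2b36 had 13854 and 14054 in SR4 livers and 12475, 12842 and 14556 in vehicle livers, with a log2 fold change of 0.07 and an interval of -0.27 to 0.42 (-0.05 with equal totals). Ugt2b34 had 10599 and 10249 in SR4 livers and 10302, 10881 and 10592 in vehicle livers (log2 fold change -0.02, 95% interval -0.33 to 0.28). With equal totals Ugt2b34 had 10014 and 9802 in SR4 livers and 10790 to 11086 in vehicle livers, with no overlap and a log2 fold change of -0.145. These 3 abundant genes had narrower intervals than any of the Sult2a genes. The interval of Ugt2b5 does not cover how reads that it shares with other genes were assigned.

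Ugt2a3 was the Ugt2 gene above the vehicle range (chromosome 5, 87324972 to 87337195). It had 7385 and 11675 normalised counts in SR4 livers, against 3789, 5470 and 6227 in vehicle livers. The log2 fold change was 0.88 ± 0.27 (limma adjusted p = 0.146). Ugt2b35 was below it, at 3818 and 3448 in SR4 livers and 4189 to 5196 in vehicle livers (log2 fold change -0.40 ± 0.14; limma adjusted p = 0.172).

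The remaining Ugt2 genes overlapped. Ugt2b1 had 6323 and 10016 normalised counts in SR4 livers and 6129 to 7650 in vehicle livers. Ugt2b38 had 133 and 138 in SR4 livers and 128 to 185 in vehicle livers. Ugt2b37 had 11.6 and 34.1 in SR4 livers and 16.8 to 111 in vehicle livers. Reads of Ugt2b37, Ugt2b38 and Ugt2b5 can be split between them. The share of 50-base stretches that occurred in another gene was 41.7% for Ugt2b5, 37.4% for Ugt2b38 and 18.3% for Ugt2b37. Values of these genes are therefore uncertain as single genes. Over the 8 genes the sum was 57089 and 65879 normalised counts in SR4 livers and 51651, 55245 and 61894 in vehicle livers.

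The human counterparts of the Ugt3 enzymes use sugars other than glucuronic acid. Ugt3a1 (chromosome 15, 9276888 to 9315032) had 3993 and 4539 normalised counts in SR4 livers, against 2120, 3096 and 2887 in vehicle livers, and the groups did not overlap (log2 fold change 0.67 ± 0.18; limma adjusted p = 0.110). Ugt3a2, its neighbour, had 10637 and 12122 in SR4 livers and 7188, 9491 and 10290 in vehicle livers, with SR4 1 just above vehicle 3, an order that turned with equal totals, where SR4 1 had 10050 and vehicle 3 had 10481 (log2 fold change 0.35 ± 0.19; limma adjusted p = 0.326). The coding sequences of the pair were 93.2% identical.

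**Figure D3:**
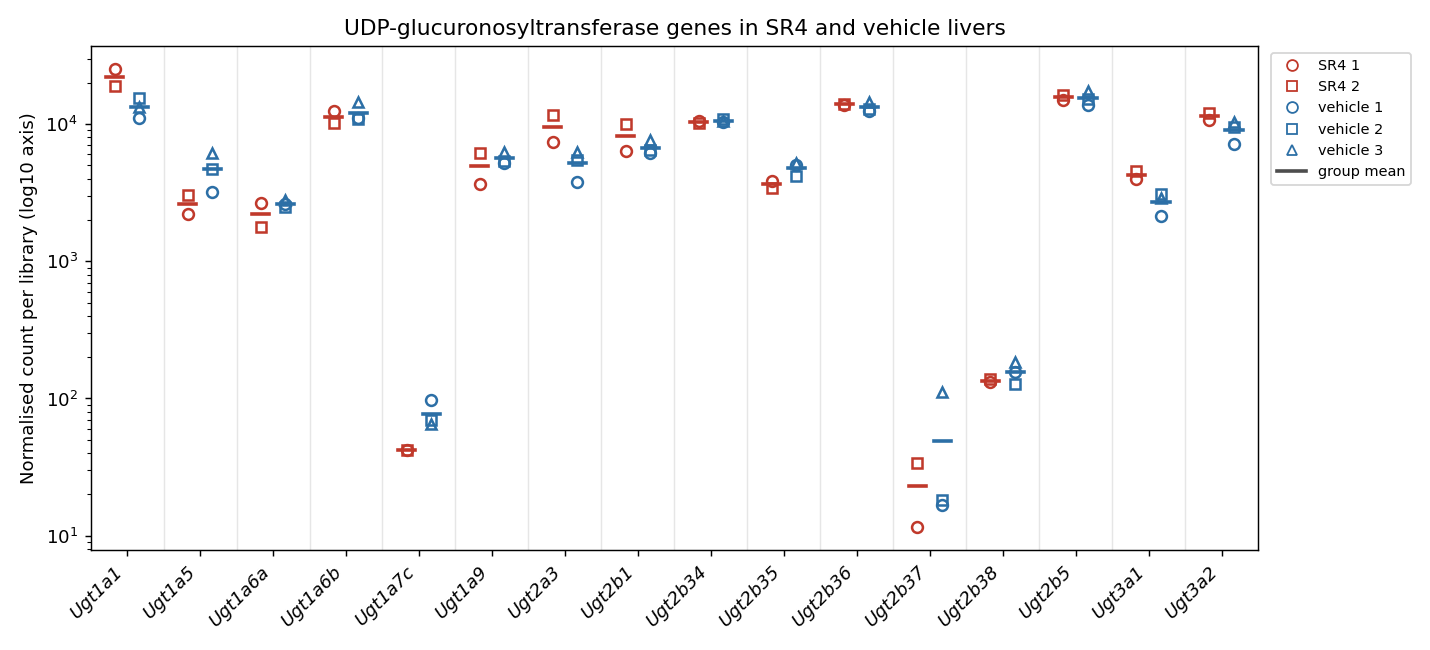
Normalised counts per library (log10 axis) of the 16 UDP-glucuronosyltransferase genes, SR4 in red left of vehicle in blue, with a symbol per library and a bar at the group mean. Of the 16 genes, 9 overlap between groups, near the share of all genes (41.7% did not overlap). Ugt1a1, Ugt2a3, Ugt3a1 and (not with equal totals) Ugt3a2 lie above the vehicle range and Ugt1a5, Ugt1a7c and Ugt2b35 below it. With equal totals Ugt1a6a and Ugt2b34 lie below it too.

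**Figure D4:**
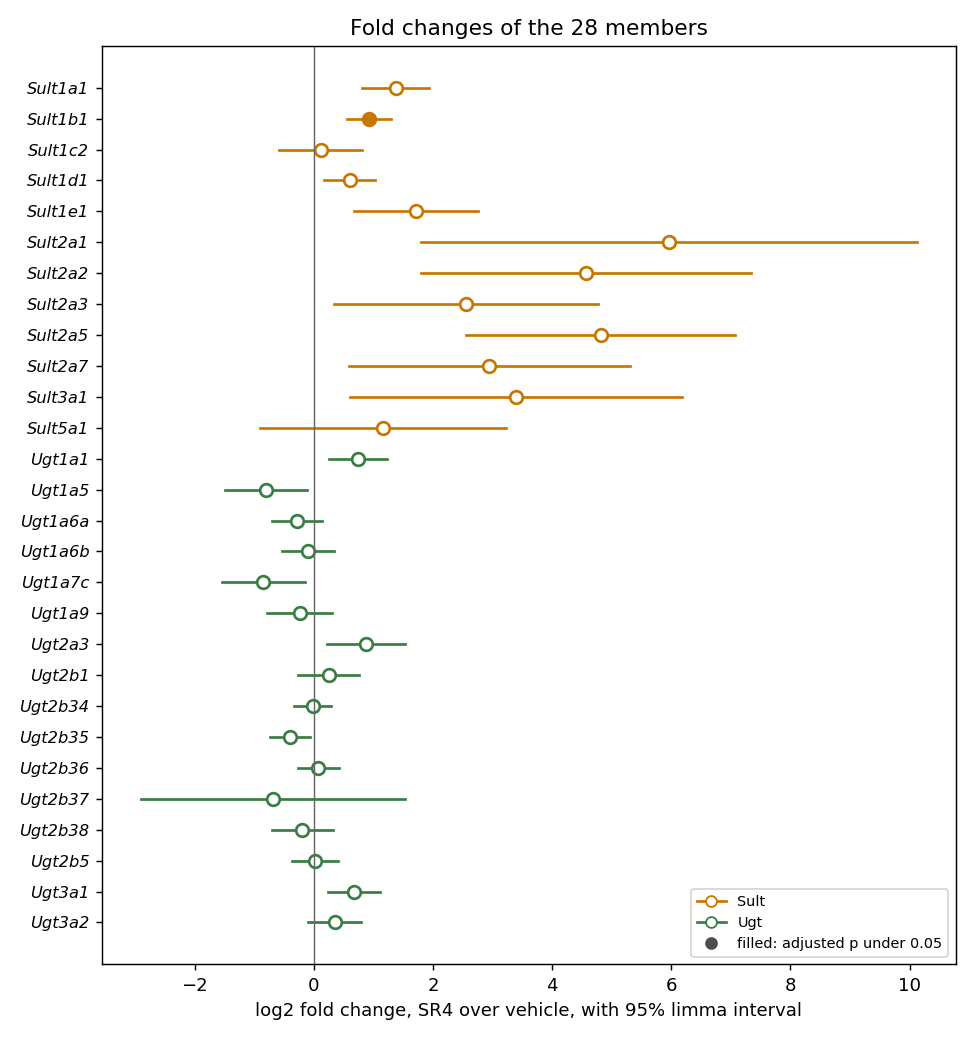
log2 fold change, SR4 over vehicle, of the 28 members with the 95% limma interval, Sult genes above Ugt genes. The filled point is Sult1b1, the member with an adjusted p under 0.05, and the widest interval is that of Sult2a1, from 1.80 to 10.1.

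Summed over each family, counts differed more for Sult than for Ugt genes. The 12 Sult genes summed to 27640 and 48014 normalised counts in SR4 livers, against 8723, 13720 and 13219 in vehicle livers, and Sult1a1 was the main contributor. The 16 Ugt genes summed to 117921 and 122758 in SR4 livers and 94211, 106708 and 118052 in vehicle livers. The SR4 mean was 3.18 times the vehicle mean for Sult and 1.13 times for Ugt genes. These sums are not corrected for length.

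The genes around the enzymes were taken from a list of 54 that supply cofactors, remove or move conjugates, or regulate these genes, and 50 were tested. Of these, 1 rose and 0 fell in the limma test adjusted over all genes (all genes: 0.436% higher and 0.863% lower). The median log2 fold change was -0.08. The gene that rose was Slco1a4, an uptake transporter of organic anions, with 4252 and 4371 normalised counts in SR4 livers and 2527, 1943 and 1737 in vehicle livers (log2 fold change 1.08 ± 0.17; limma adjusted p = 0.0453). The count for the list was 0 with equal totals and without SR4 1, SR4 2, vehicle 2 or vehicle 3.

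Of 14 cofactor genes tested, 0 passed, 2 lay above the vehicle range in both SR4 libraries and 4 lay below it, where 21.5% and 20.2% of all genes did. The 6 together were near the 41.7% of all genes that did not overlap. Papss2, which makes the sulfate donor PAPS, had 10675 and 13318 normalised counts in SR4 livers, against 3275, 6199 and 6004 in vehicle livers (2.40-fold; limma adjusted p = 0.0940). Ugp2, which makes UDP-glucose, the precursor of UDP-glucuronic acid, had 10243 and 10858 in SR4 livers, against 18725, 15023 and 14482 in vehicle livers (log2 fold change -0.60, 95% interval -0.99 to -0.21; limma adjusted p = 0.114). Neither passed, though neither overlapped between groups. Papss2 was lowest in vehicle 1, as were 21 of the 28 members, Sult2a2 and Sult1a1 among them. Ugdh, which oxidises UDP-glucose to UDP-glucuronic acid, and Papss1, the other PAPS synthase gene, overlapped (limma adjusted p = 0.387 and 0.547).

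**Figure D5:**
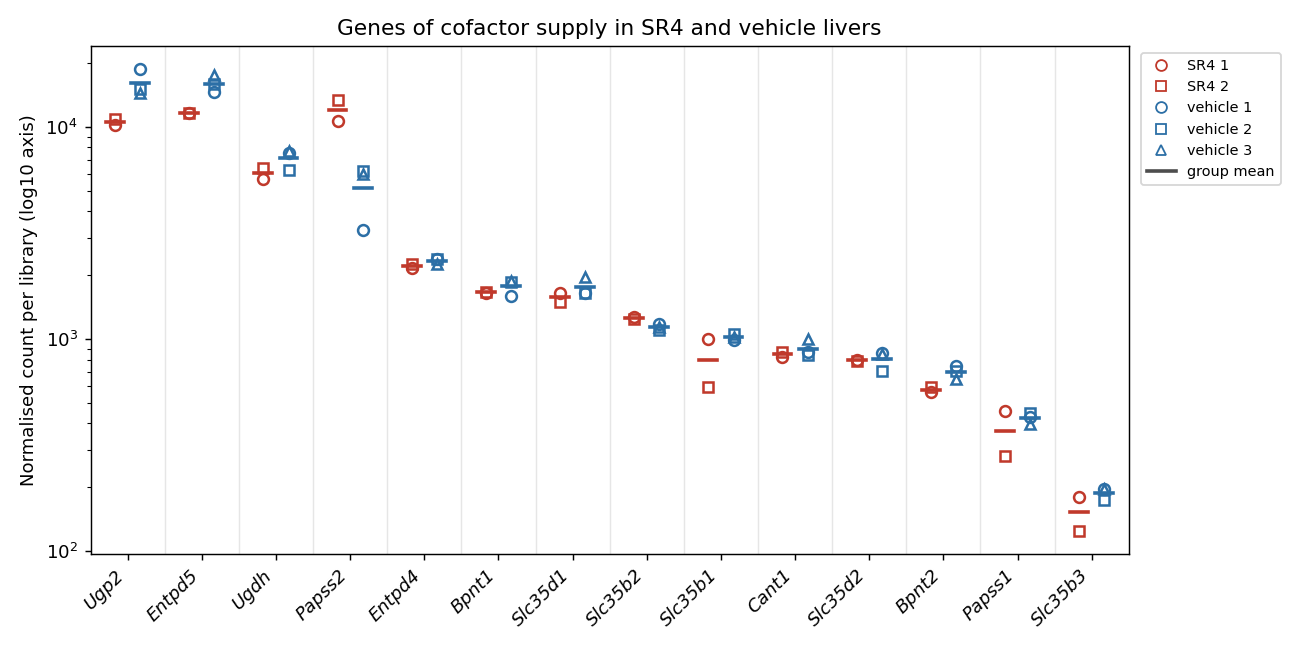
Normalised counts per library (log10 axis) of 14 genes that supply or recycle the cofactors, ordered by vehicle mean, SR4 in red left of vehicle in blue. Papss2 lies above and Ugp2 below the vehicle range in both SR4 libraries, and 8 of the 14 genes overlap between groups (of all genes, 41.7% do not).

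Among 17 transcription factors described for these genes, 0 passed. The smallest p-values were those of Esr1, the estrogen receptor alpha, and Nfe2l2, which encodes NRF2. Esr1 had 426 and 291 normalised counts in SR4 livers, against 100.5, 163 and 152 in vehicle livers (2.58-fold; limma adjusted p = 0.0658). Nfe2l2 had 1809 and 1639 in SR4 livers, against 3060, 2392 and 2901 in vehicle livers (limma adjusted p = 0.0658). The xenobiotic receptor genes Nr1i2 (PXR) and Nr1i3 (CAR) overlapped between groups, and Nr1i3 ran from 1330 to 4272 within the vehicle livers alone (limma adjusted p = 0.721 and 0.948).

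The libraries carried the markers of liver. All 7 hepatocyte markers were measured, and their sum was 2270710 to 2818990 normalised counts in SR4 livers and 1989470 to 2641860 in vehicle livers, a sum made up mostly of Alb. Of the 7, 4 lay above the vehicle range in both SR4 libraries and 3 overlapped (all genes: 21.5% above, 20.2% below). Of the 7, 1 passed, where 1.3% of all genes did. It was Tat, which was 4.31-fold higher in SR4 livers (limma adjusted p = 0.0337). Of 5 lymphocyte and 4 kidney markers, 0 were among the rows used here. The 5 measured Kupffer cell markers of 6 summed to 1481 to 2901 in SR4 livers and 2837 to 3685 in vehicle livers, and 6 stellate cell markers to 5065 to 6560 in SR4 livers and 6122 to 10338 in vehicle livers. In each of these lists 2 markers lay below the vehicle range, where 20.2% of all genes did. Among them were Col1a1 and Col1a2, which were 3.04-fold and 2.37-fold lower in SR4 livers (limma adjusted p = 0.0867 and 0.0957). The single intestinal marker measured of 4, Fabp2, had 2181 to 2742 in SR4 livers and 3604 to 4941 in vehicle livers. The sums of the Kupffer cell and stellate cell markers overlapped between groups, as did the sum of 5 endothelial markers. The single measured markers of cholangiocytes (Spp1, of 5), adipocytes (Fabp4, of 4) and pancreas (Cela1, of 4) overlapped too. The part of any of these cell types in the Sult and Ugt values was not tested.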

How the data were processed

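Liver RNA was sequenced in 2 SR4 and 3 vehicle samples. Per the labels' protocols, 500 ng of total RNA went into each library and the kit was TruSeq RNA V2, an unstranded kit, so overlapping antisense reads cannot be told apart. TopHat2 2.1.1, Partek and GRCm38 (mm10) appear in the submitters' processing notes, while read length, counter and annotation were not given in the sources used here. The deposited signal values are gene counts that the authors had brought to a common library size: column sums were 25494249, equal to within 0.00074%. Unadjusted read totals were not derived, so the depth is unknown and no counting interval is given. In 17 rows (0.177% of counts) a date stood in place of a symbol, and they were left out.

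The test was limma on log2(value / TMM factor + 1), for genes at 10 or more in at least 2 libraries, with trended, robust empirical Bayes and Benjamini-Hochberg adjustment over 10542 genes. TMM factors were computed with trims of 30% and 5%. The pipeline was tested on simulated data in which all genes had the same dispersion between libraries. That does not cover genes such as Sult2a1, whose vehicle libraries here differed by many fold. Genes were named in full where they passed, where groups did not overlap with a log2 fold change of 1 or more in size, or where they were among the 3 highest per kb in their family. For the pathway list, those that passed and 4 more with the smallest p were named, and others mentioned were chosen after their values were seen. The members and lists were chosen with earlier results of these data known. Alternatives were equal totals, RLE factors, other filters and pseudocounts, no robust shrinkage, a replicate block and each library left out, and the counts at an unadjusted p and of groups that did not overlap were added after seeing the data. Shared sequence was measured as the share of a gene's 50-base stretches that occur in GENCODE M21 transcripts of another gene. Software was R 4.3.3, limma 3.58.1, Python 3.11.15 and matplotlib 3.10.9.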

Additional observations from a re-analysis of the deposited data

How the results depend on the processing

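Over all genes 46 passed higher and 91 lower, and with 1 library left out these ran from 1 to 46 and from 3 to 140. They were 1 and 6 without SR4 2, 3 and 5 without vehicle 2, and 2 and 3 without vehicle 3, while the 140 lower came without SR4 1. Members that passed numbered 1 higher and 0 lower, with 0 to 2 higher when 1 library was left out, 2 with no filter and 2 with no robust shrinkage. The pathway list's 1 passing gene became 0 with equal totals and 0 to 1 with 1 library left out. Members at an unadjusted p under 0.05 ran from 5 to 13 higher and 1 to 2 lower with 1 library left out. Members outside the vehicle range on the low side numbered 5 with equal totals and 3 to 6 with 1 library left out, against 3; leaving out a library widens this count by its construction, since fewer libraries must be cleared. Those on the high side ran from 13 to 16 over these settings. The members' median of 0.477 stayed between 0.299 and 0.559.

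With the replicate number as a block, 194 genes were higher and 279 lower, with 7 members and 2 pathway genes higher. The labels do not say that the numbers pair the samples, and there are only 2 numbers in common: the deviations of same-numbered libraries correlated at 0.17 and 0.11.

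Directions turned for 9 members, all of which overlapped between groups. With equal totals, Sult1c2, Ugt2b36 and Ugt2b5 had log2 fold changes of -0.00599, -0.0484 and -0.103. With the block, Sult1c2, Ugt1a6b and Ugt2b37 had -0.0538, 0.0343 and 0.181. With 1 library left out, the ranges were -0.079 to 0.375 for Sult1c2, -0.574 to 0.00661 for Ugt1a6a, -0.244 to 0.0499 for Ugt1a6b, -0.62 to 0.141 for Ugt1a9, -0.0863 to 0.578 for Ugt2b1, -0.0465 to 0.00137 for Ugt2b34, -1.43 to 0.177 for Ugt2b37 and -0.0657 to 0.101 for Ugt2b5. The causes were not tested.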
